A study of Ovis aries with 6 samples.

Results

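Solute carriers are the membrane proteins that move nutrients, ions, metals and metabolites into cells, out of cells and between cell compartments, and their gene symbols begin with SLC or SLCO. All genes with such a symbol in the authors' table of changed genes were taken, which gave 32 of 1620 listed genes. The study used primary granulosa cells, which line the ovarian follicle and surround the oocyte, taken from Hu sheep (Ovis aries) follicles of at least 3 mm. In 3 libraries (siINHBA) the cultured cells had received a small interfering RNA against INHBA, the gene of the beta A subunit of activin A and inhibin A, and in 3 libraries (siNC) a negative control RNA, in both groups with a lipid reagent and with RNA taken 24 h later. No label says whether the libraries of a group were separate cultures or animals, so p-values measure the spread between these libraries only, which may be technical.

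Granulosa cells take up glucose and amino acids, pass pyruvate and other metabolites on to the oocyte, and depend on sodium, proton, zinc and iron transport like other dividing cells. Most plasma membrane carriers run down an ion gradient or exchange one substrate for another, whereas mitochondrial, vesicular and Golgi members of the superfamily serve compartments inside the cell. Each carrier family shares a fold and, broadly, a class of substrate.

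The table holds only genes that the authors called: in the authors' deposited table no false discovery rate exceeded 0.0090 and no gene changed by less than 1.00 on the log2 scale. Counts over the listed genes summed to 2781548 to 2948524 per siNC library and 1590871 to 2042924 per siINHBA library, while sequencing depth, which the ratio between count and FPKM (fragments per kilobase of transcript, scaled to the mapped fragments of a library) gives back, was 0.952 to 1.17 relative to siNC 1. INHBA itself was at 21.2, 21.8 and 18.5 FPKM in siNC against 8.02, 6.51 and 7.54 FPKM in siINHBA, a log2 fold change of -1.49 (SE 0.14, adjusted p = 3.9e-06 by edgeR quasi-likelihood). The fold change rests on counts, which were 3784, 4037 and 3903 in siNC against 1536, 1366 and 1327 in siINHBA. The count per FPKM of INHBA, corrected for depth, was 80.3% of the siNC mean in siINHBA 3 and 95.75% to 108% in the other libraries. RefSeq's sheep gene list (assembly ARS-UI_Ramb_v3.0) has 364 symbols of the SLC and SLCO form, and all 32 listed carriers were among them. The others were not listed and are not analysed here. The sequence descriptions in the authors' deposited table name a carrier, transporter, exchanger or extrusion protein for all 32.

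Of the 32 carriers, 25 were lower and 7 higher in siINHBA. All 32 passed an adjusted p of 0.05, as did 100% of the table (edgeR, recovered depth), so the passing itself says nothing about carriers. The genes were selected by the authors on these same libraries, so the adjusted p-values given here are not independent evidence of a change. The lower members were 78.1% of the carriers, where 65.7% of all listed genes were lower, and the higher members were 21.9%, where 34.3% of all listed genes were higher. These shares are a description and were not tested. The median change was 2.27-fold among the lower carriers (2.64-fold among all lower genes) and 3.07-fold among the higher carriers (2.80-fold among all higher genes). The siNC and siINHBA libraries did not overlap in FPKM for any of the 32, against 99.9% of the table, and each member's exact two-sided permutation p was 0.1, the smallest that 3 against 3 allows. In cultured cells measured in bulk, fewer cells of a type and less RNA per cell cannot be told apart.

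The scaling sets how many carriers count as lower. The TMM factors of edgeR, computed over the listed genes, centre the table near its median gene and raised the median log2 fold change of all listed genes by 1.09. INHBA was then at -0.41 (adjusted p = 0.018 by edgeR) in place of -1.49. With TMM all 7 higher carriers passed as higher, at log2 fold changes of 2.36 to 4.59, with 34.3% of the table. As lower, 6 carriers passed, with 22.5% of the table, among them SLC6A17, SLC25A24, SLC5A8, SLC30A4 and SLC39A9. A further 11 stayed negative without passing (-0.32 to -0.04), and 8 changed sign without passing (0.03 to 0.12), among them SLC35E1, SLC44A2, SLC38A2, SLC41A2, SLC25A35, SLC39A6 and SLC38A1. Relative to the median listed gene, then, 19 of the 25 did not pass, while 6 fell further and the 7 rose. TMM assumes that most genes are unchanged, which a table of called genes does not meet, and the values below use the recovered depth.

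**Figure D1:**
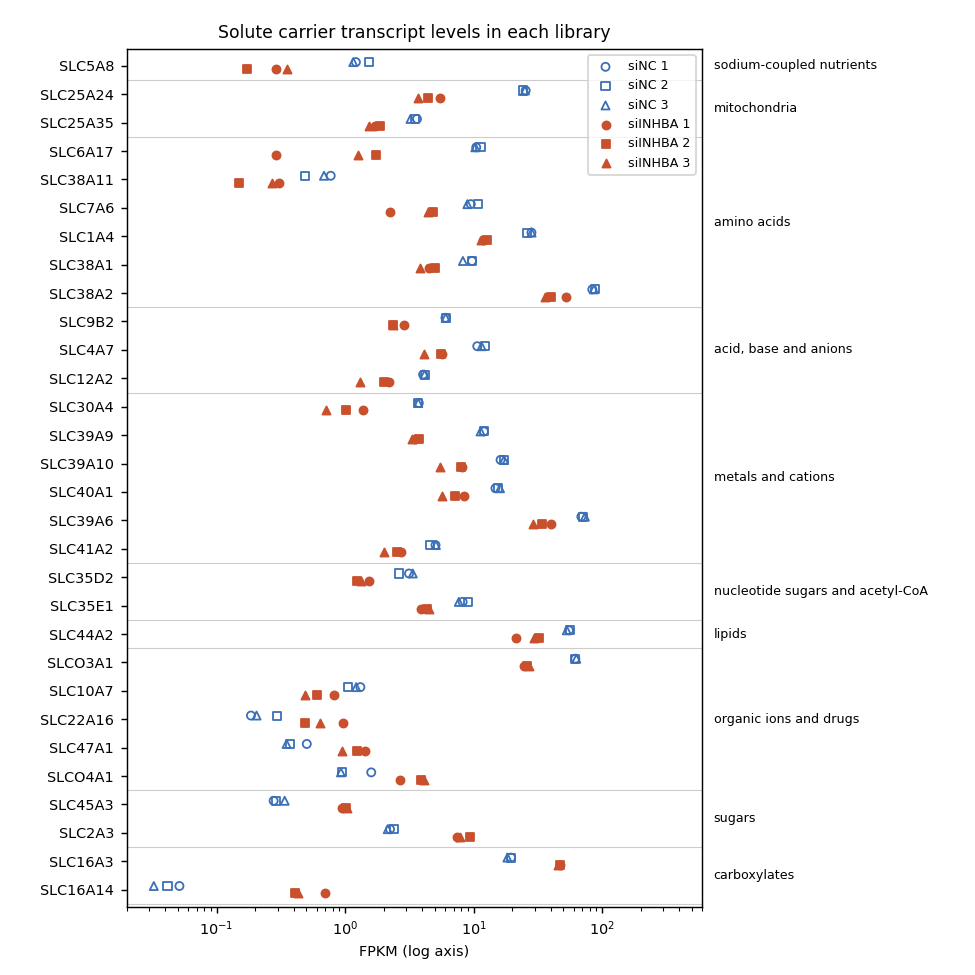
FPKM (log axis) of 30 of the 32 solute carriers in each library, grouped by substrate class, with open blue symbols for siNC 1 to 3 and filled red symbols for siINHBA 1 to 3. The groups do not overlap in any row, and the siNC means run from 0.042 FPKM (SLC16A14) to 86.2 FPKM (SLC38A2).

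Both sugar carriers and both monocarboxylate (SLC16) carriers were higher, while the sodium-coupled monocarboxylate carrier SLC5A8 was lower. SLC2A3 encodes GLUT3, a high-affinity glucose transporter, and was at 2.24, 2.41 and 2.15 FPKM in siNC against 7.41, 9.40 and 7.80 FPKM in siINHBA. Its lowest siINHBA library was thus above 3 times its siNC mean, at 327%, and its log2 fold change was 1.86 (SE 0.14, adjusted p = 1.5e-06 by edgeR). SLC16A3 encodes MCT4, the proton-coupled carrier through which glycolytic cells release lactate. It was the only higher carrier above 10 FPKM in siNC, with 19.6, 19.6 and 18.4 FPKM in siNC against 46.8, 47.5 and 45.4 FPKM in siINHBA, and rose by 1.28 on the log2 scale (SE 0.10, adjusted p = 1.6e-06 by edgeR). Its coefficient of variation among the siINHBA libraries (CV, the SD over the mean) was 2.32%, the lowest of the 32.

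SLC45A3, a proton-coupled sugar carrier also known as prostein, rose from 0.278, 0.290 and 0.339 FPKM to 0.952, 1.03 and 1.03 FPKM (log2 fold change 1.70, SE 0.21, adjusted p = 2.8e-05 by edgeR). SLC16A14, a member of the monocarboxylate family without an assigned substrate in general use, had the largest fold of all 32 but few reads: 10, 8 and 7 counts in siNC and 122, 78 and 94 in siINHBA, a log2 fold change of 3.51 (SE 0.35) with the highest level at 0.696 FPKM. The fold of so low a gene is imprecise, and the authors' deposited table gives 2.91. SLC5A8 encodes SMCT1, a sodium-coupled importer of lactate, pyruvate and short-chain fatty acids, and fell. It was at 1.21, 1.54 and 1.16 FPKM in siNC against 0.288, 0.171 and 0.355 FPKM in siINHBA, a log2 fold change of -2.22 (SE 0.30, adjusted p = 4.2e-05 by edgeR), from 15 to 34 counts per siINHBA library.

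All 6 amino acid carriers were lower, but under TMM 1 of the 6, SLC6A17, passed, SLC1A4 (-0.11), SLC7A6 (-0.21) and SLC38A11 (-0.32) did not, and SLC38A1 and SLC38A2 changed sign. SLC38A2 encodes SNAT2, a sodium-coupled importer of small neutral amino acids that cells induce when amino acids run short. It was the most abundant carrier of the table, at 84.0, 88.0 and 86.5 FPKM in siNC against 52.9, 39.9 and 36.1 FPKM in siINHBA, a log2 fold change of -1.01 (SE 0.14, adjusted p = 6.0e-05 by edgeR). The first siINHBA library kept 61.3% of the siNC mean and the third 41.9%. SLC38A1, which encodes the glutamine carrier SNAT1, fell from 9.26 ± 0.86 to 4.45 ± 0.61 FPKM (mean ± SD, n = 3), a log2 fold change of -1.05. In the RefSeq gene order these 2 genes are neighbours with no protein-coding gene between them, the only pair of members with at most 5 such genes between them.

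SLC1A4 encodes ASCT1, an exchanger of alanine, serine, cysteine and threonine. It was at 28.2, 26.2 and 28.3 FPKM in siNC against 11.8, 12.8 and 11.5 FPKM in siINHBA, with a log2 fold change of -1.20 (SE 0.10). SLC7A6 encodes y+LAT2, a light subunit that pairs with the heavy chain SLC3A2 to exchange arginine for neutral amino acids. Its levels were 9.52, 10.9 and 8.96 FPKM in siNC against 2.24, 4.85 and 4.40 FPKM in siINHBA, and its log2 fold change was -1.30 (SE 0.19, adjusted p = 7.2e-05 by edgeR). The first siINHBA library was at 22.8% of the siNC mean and the other siINHBA libraries at 49.6% and 45.0%. In that first library its count per FPKM, corrected for depth, was 128% of the siNC mean, so counts put it less low than FPKM does. SLC38A11, a family member whose deposited description calls it putative, was at 0.650 ± 0.144 FPKM in siNC against 0.243 ± 0.083 FPKM in siINHBA.

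The largest fall of the 32 was in SLC6A17, whose product NTT4 loads neutral amino acids into vesicles in neurons of rodents. It was at 10.5, 11.3 and 10.3 FPKM in siNC against 0.290, 1.75 and 1.27 FPKM in siINHBA. The counts were 1905, 2046 and 1969 in siNC and 30, 341 and 305 in siINHBA, so every siINHBA library was far below every siNC library and the first was far below the other siINHBA libraries. The log2 fold change was -3.21 (SE 0.55, adjusted p = 2.3e-04 by edgeR), and it was -2.71 without the first siINHBA library. The authors' deposited table gives -1.75, the widest gap between its value and the edgeR value among the carriers. The count per FPKM of this gene, corrected for depth, was 60.6% of the siNC mean in the first siINHBA library and 105% and 114% in the others; whether this bears on the fall was not tested.

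The 6 metal carriers were all lower, but under TMM SLC30A4 and SLC39A9 passed, SLC39A10 (-0.14) and SLC40A1 did not, and SLC39A6 and SLC41A2 changed sign. Zinc enters the cytosol through the SLC39 (ZIP) family and leaves it through the SLC30 (ZnT) family. Of the 14 SLC39 symbols in RefSeq 3 were listed, and of the 10 SLC30 symbols 1. SLC39A6 encodes ZIP6, an importer that can pair with ZIP10, the product of SLC39A10. It was the second most abundant carrier, at 69.1, 70.6 and 73.5 FPKM in siNC against 39.8, 34.3 and 28.9 FPKM in siINHBA (log2 fold change -1.05, SE 0.13, adjusted p = 2.0e-05 by edgeR). SLC39A10 was at 16.2, 17.3 and 17.3 FPKM in siNC against 8.15, 8.0 and 5.49 FPKM in siINHBA, a log2 fold change of -1.23 (SE 0.15). In both genes the third siINHBA library was the lowest.

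SLC39A9 encodes ZIP9, a zinc transporter that in fish ovary has been described as a membrane androgen receptor as well. It fell further than the other importers, from 12.1, 12.0 and 11.3 FPKM to 3.52, 3.77 and 3.29 FPKM, at a log2 fold change of -1.74 (SE 0.11, adjusted p = 7.7e-07 by edgeR), and its siINHBA libraries lay close together (CV 6.86%). SLC30A4 encodes ZnT4, which moves zinc into vesicles and out of the cell. It was at 3.75, 3.69 and 3.71 FPKM in siNC against 1.38, 1.02 and 0.708 FPKM in siINHBA, a log2 fold change of -1.84 (SE 0.21, adjusted p = 1.5e-05 by edgeR), with a CV of 0.837% among siNC and 32.4% among siINHBA libraries.

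SLC40A1 encodes ferroportin, the iron exporter. It was at 14.8, 15.4 and 16.1 FPKM in siNC against 8.42, 7.23 and 5.64 FPKM in siINHBA, with a log2 fold change of -1.12 (SE 0.15) that was -0.04 and not past the threshold under TMM. SLC41A2, a magnesium transporter, fell from 4.91 ± 0.30 to 2.43 ± 0.37 FPKM (log2 fold change -1.01). For all 6 metal carriers the third siINHBA library was the lowest of the siINHBA libraries.

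**Figure D2:**
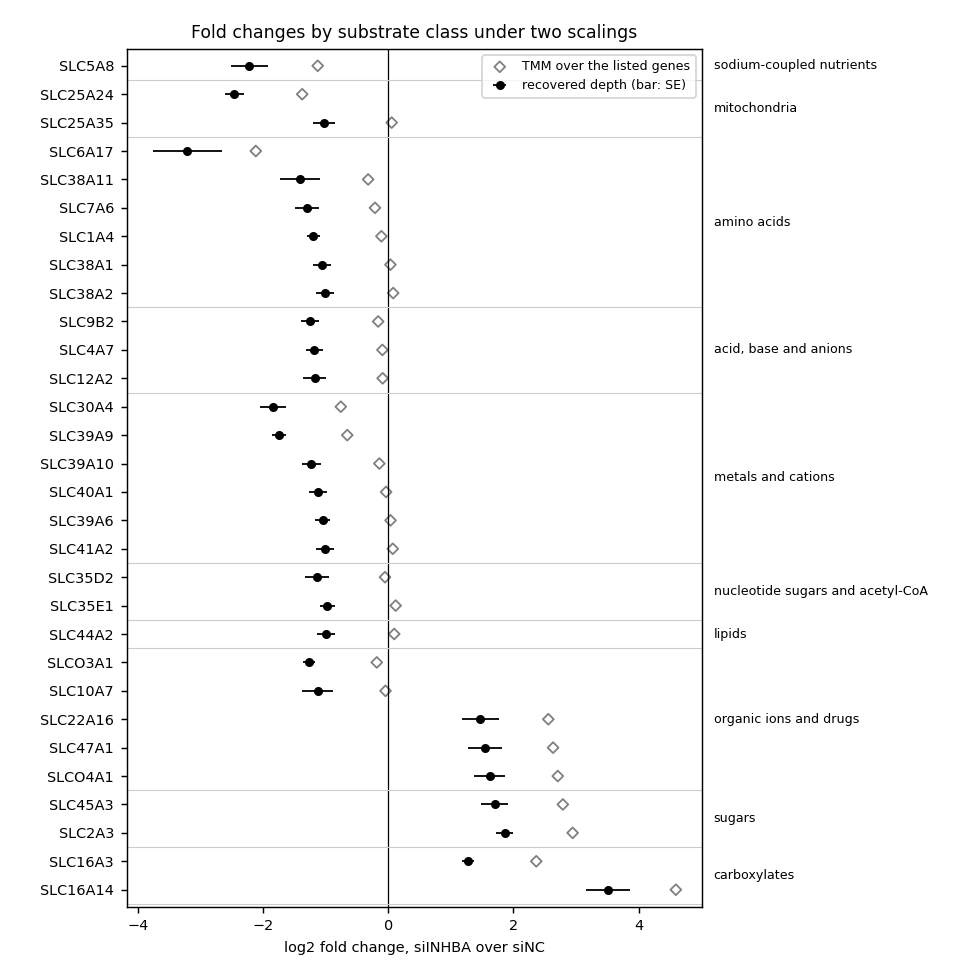
Log2 fold change of siINHBA over siNC for 30 of the 32 carriers, grouped by substrate class, with the recovered depth (black points, bars are the SE) and with TMM over the listed genes (open grey diamonds). TMM moves every row to the right by about 1.09, which leaves the 7 higher carriers higher, SLC6A17 (-2.12), SLC25A24, SLC5A8, SLC30A4 and SLC39A9 (-0.66) past the threshold as lower, and SLC35E1, SLC44A2, SLC38A2, SLC41A2, SLC25A35, SLC39A6 and SLC38A1 just above 0.

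The 5 carriers of chloride, bicarbonate and protons were lower, and under TMM 1 of them passed as lower and 1 changed sign. SLC12A2 encodes NKCC1, which brings sodium, potassium and chloride into the cell. It was at 4.05, 4.22 and 4.16 FPKM in siNC against 2.19, 2.01 and 1.31 FPKM in siINHBA, a log2 fold change of -1.17 (SE 0.18). SLC4A7 encodes NBCn1, a sodium bicarbonate importer that raises cell pH. It fell from 11.5 ± 0.82 to 5.11 ± 0.87 FPKM, with a log2 fold change of -1.18 (SE 0.14). SLC9B2 encodes NHA2, a sodium and proton exchanger. Its siNC libraries were nearly identical at 6.05, 6.09 and 6.07 FPKM, and its siINHBA libraries were at 2.87, 2.37 and 2.35 FPKM, a log2 fold change of -1.25 (SE 0.14). SLC12A2, SLC4A7 and SLC9B2 did not pass as lower under TMM. In all 5 genes of this class the third siINHBA library was again the lowest.

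Of the 45 mitochondrial SLC25 symbols in RefSeq 2 were listed, and they fell to different degrees. SLC25A24 encodes SCaMC-1, a calcium-regulated carrier that exchanges ATP-magnesium for phosphate across the inner mitochondrial membrane. It was at 25.5, 24.3 and 25.1 FPKM in siNC against 5.48, 4.43 and 3.69 FPKM in siINHBA, so siINHBA kept 18.2% of the control level. Its log2 fold change of -2.46 (SE 0.15, adjusted p = 6.5e-07 by edgeR) was the second largest fall of the 32, and -1.38 with TMM. SLC25A35, a family member without an established substrate, was at 3.46 ± 0.20 FPKM in siNC against 1.70 ± 0.17 FPKM in siINHBA, a log2 fold change of -1.03 that was 0.05 with TMM.

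Carriers of organic anions and cations were split, with 2 lower and 3 higher. SLCO3A1 encodes OATP3A1, an organic anion carrier that takes prostaglandins among its substrates. It was at 62.0, 61.6 and 63.1 FPKM in siNC against 24.5, 25.9 and 26.9 FPKM in siINHBA, a log2 fold change of -1.27 (SE 0.10, adjusted p = 1.5e-06 by edgeR), with a CV of 1.23% and 4.70%. SLCO4A1 encodes OATP4A1, a carrier of thyroid hormone, and rose. Its siNC libraries were at 1.60, 0.952 and 0.929 FPKM and its siINHBA libraries at 2.70, 3.93 and 4.08 FPKM, with a log2 fold change of 1.62 (SE 0.25, adjusted p = 1.1e-04 by edgeR). The first siNC library was the highest of its group and the first siINHBA library the lowest of its group. With TMM the rise of SLCO4A1 still passed, whereas SLCO3A1 was at -0.18 and did not pass (adjusted p = 0.15 by edgeR).

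SLC47A1 encodes MATE1, a proton-coupled exporter of organic cations. It rose from 0.504, 0.372 and 0.351 FPKM to 1.44, 1.23 and 0.954 FPKM (log2 fold change 1.55, SE 0.27, adjusted p = 2.6e-04 by edgeR). SLC22A16, a carnitine carrier, was at 0.185, 0.296 and 0.205 FPKM in siNC against 0.969, 0.491 and 0.642 FPKM in siINHBA, from 17 to 24 and 50 to 66 counts, with a log2 fold change of 1.47 (SE 0.30). SLC10A7, a relative of the bile acid carriers that takes part in calcium handling and glycosylation, was at 1.20 ± 0.13 FPKM in siNC against 0.639 ± 0.174 FPKM in siINHBA (log2 fold change -1.13, SE 0.25, adjusted p = 1.1e-03 by edgeR), and did not pass with TMM (-0.04).

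The remaining 3 carriers were lower. SLC44A2 encodes a choline-transporter-like protein of the plasma membrane and mitochondria. It was at 55.3, 56.2 and 53.2 FPKM in siNC against 21.4, 32.6 and 29.5 FPKM in siINHBA, a log2 fold change of -0.995 (SE 0.15, adjusted p = 8.5e-05 by edgeR) that was 0.09 with TMM. As with SLC7A6 and SLC6A17, the first siINHBA library was the lowest, at 39.0% of the siNC mean against 59.3% and 53.8%. SLC35D2, which brings nucleotide sugars into the Golgi, was at 3.05 ± 0.38 and 1.36 ± 0.15 FPKM, a log2 fold change of -1.14 that was -0.05 with TMM. SLC35E1, a relative with no assigned substrate, was at 8.32 ± 0.69 and 4.23 ± 0.31 FPKM, a log2 fold change of -0.97 that was 0.12 with TMM.

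The higher carriers were mostly scarce in control cells. The median siNC level was 0.409 FPKM for the 7 higher carriers and 9.37 FPKM for the 25 lower ones, against 1.14 and 4.51 FPKM for all higher and lower listed genes. Below 1 FPKM in siNC were 4 of the 7 higher carriers (57.1%, against 47.4% of all higher genes) and 1 of the 25 lower carriers (4.0%, against 14.1% of all lower genes). Summed over the 32, the carriers held 481 to 489 FPKM in the siNC libraries and 273, 272 and 245 FPKM in the siINHBA libraries. The 7 higher carriers added 22.4 to 24.4 FPKM to the siNC sums and 60.3 to 63.9 FPKM to the siINHBA sums.

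The siINHBA libraries differed among themselves more than the siNC libraries did. Across the 32 carriers the median CV of FPKM was 5.83% in siNC and 18.4% in siINHBA, and the CV was larger in siINHBA for 26 of the 32 (81.3%). Over all listed genes the medians were 8.81% and 17.4%, and 72.2% had the larger CV in siINHBA. The lower carriers accounted for the gap, at medians of 4.25% and 17.1%. The 7 higher carriers had medians of 20.3% and 20.2% and a larger CV in siINHBA for 3. The whole table split by direction in the same way. Its lower genes had medians of 7.04% in siNC and 18.7% in siINHBA, and its higher genes 15.3% and 15.0%. The CV in siINHBA ran from 2.32% in SLC16A3 to 67.5% in SLC6A17, followed, among carriers with a siINHBA mean of at least 1 FPKM, by SLC7A6 at 36.5% and SLC30A4 at 32.4%. On counts scaled by depth SLC7A6 was at 26.3%, below SLC30A4 at 32.4%, and SLC6A17 was at 75.2%.

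**Figure D3:**
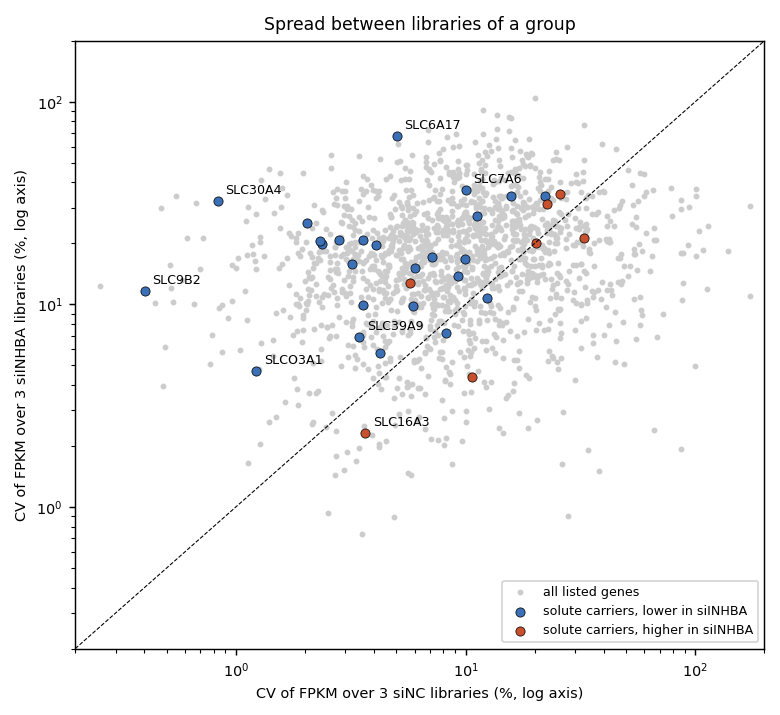
CV of FPKM over the 3 siNC libraries (x axis, log) against that over the 3 siINHBA libraries (y axis, log) for all listed genes (grey) and for the solute carriers that were lower (blue) or higher (red) in siINHBA with the recovered depth, 8 of the blue ones changing sign with TMM. Of the 32 carriers 26 lie above the dashed line of equal CV, and SLC6A17 lies at 5.01% and 67.5%.

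The libraries behind this spread were not the same for all carriers. The third siINHBA library was the lowest of its group for 17 of the 25 lower carriers, against 422 of all 1065 lower genes, and it was the most deeply sequenced library at 1.17 times the first siNC library. The first siINHBA library was the lowest for 5 of the 25 (395 of the 1065) and the highest for 14 (392 of the 1065). The median level of the 25 was 47.3%, 46.9% and 40.7% of the siNC mean in siINHBA 1, 2 and 3, and that of all lower genes 36.8%, 39.4% and 34.9%. The part of depth in this order was not tested. For 4 of the 31 carriers with at least 10 counts in every library (12.9%) the depth-corrected count per FPKM of a siINHBA library was over 10% away from the siNC mean, against 5.62% of such listed genes. These were SLC6A17, SLC7A6, SLC10A7 and SLC22A16, so that for them counts and FPKM give somewhat different fold changes.

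**Figure D4:**
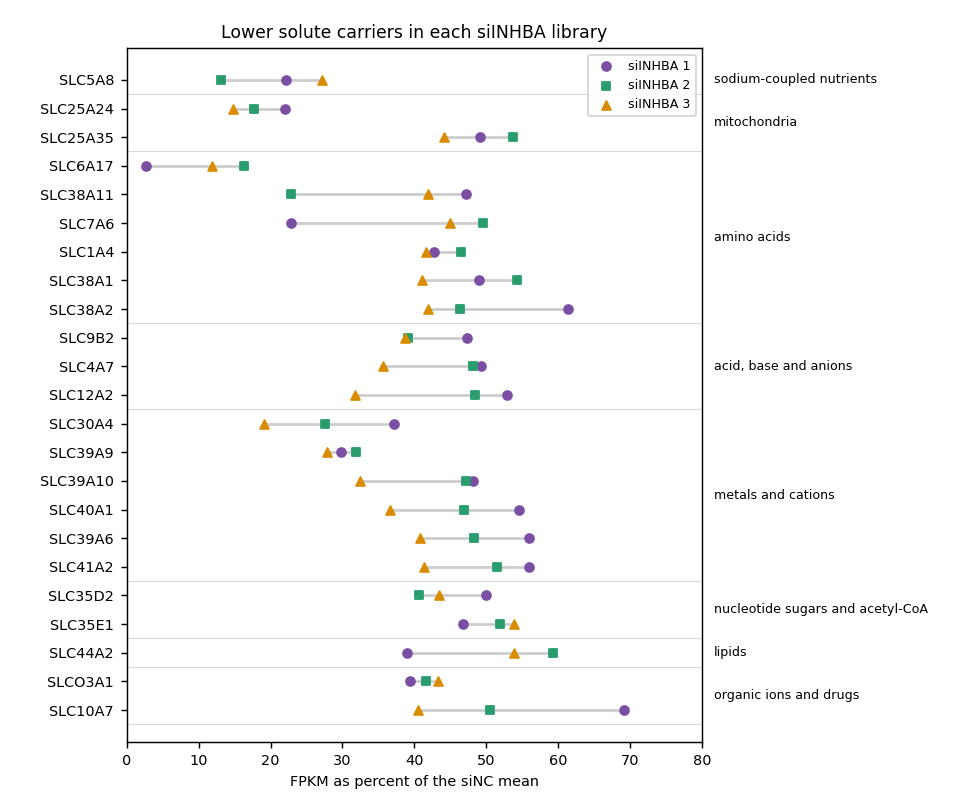
FPKM of 23 of the 25 lower carriers in siINHBA 1, 2 and 3 as a percent of the siNC mean, grouped by substrate class. The third library (orange triangles) is the leftmost in every row drawn of metals and of acid, base and anions. The first library (purple circles) is the leftmost in SLC6A17, SLC7A6, SLC44A2, SLCO3A1 and SLC35E1. With TMM 8 of the 25 lower carriers change sign.

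Genes that work beside the carriers were read from fixed lists, of which few members were listed. Of 25 cation-pumping ATPase genes, which build the ion gradients that many carriers use, 6 were listed and all 6 were lower, with a median log2 fold change of -1.61, against -1.40 over all lower listed genes. ATP2C1, a calcium and manganese pump of the Golgi, fell from 17.4 ± 0.86 to 7.33 ± 0.86 FPKM (log2 fold change -1.25, SE 0.12), and ATP2B4, a calcium pump of the plasma membrane, from 24.6 ± 1.79 to 9.16 ± 3.10 FPKM (-1.42, SE 0.22). Under TMM neither ATP2C1 nor ATP2B4 passed, at -0.16 and -0.33, while 2 of the 6 listed pumps passed as lower. Of 38 ABC transporter genes, the ATP-driven exporters, 4 were listed, all lower, at a median of -1.31. Among them were the sterol exporter ABCG1 at -1.77 (SE 0.18) and the peroxisomal ABCD3 at -1.24 (SE 0.15), and with TMM ABCG1 alone passed.

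In the list of glycolysis and lactate genes, 2 of 23 were listed and both were lower, while the glucose carrier SLC2A3 and the lactate carrier SLC16A3 were higher. HK1, a hexokinase that phosphorylates glucose on entry, was at 303 ± 7.44 FPKM in siNC against 102 ± 18.7 FPKM in siINHBA (log2 fold change -1.56, SE 0.14). PFKM, a phosphofructokinase subunit, was at -0.97 and changed sign with TMM (0.12). From 20 partner subunits and regulators of carriers, 1 was listed: SGK1, a kinase that keeps several carriers at the cell surface, at -1.03 (SE 0.09) and at 0.06 with TMM. From 24 metal handling genes, 1 was listed: IREB2, which tunes ferroportin and other iron mRNAs, at -1.37 (SE 0.15) and at -0.29 without passing under TMM. AQP9, a channel for water and glycerol and the 1 of 12 aquaporin genes listed, rose at a log2 fold change of 2.20 (SE 0.37) from 0.435 ± 0.203 to 2.01 ± 0.62 FPKM.

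The 27 ATF4 target genes of the amino acid response had 2 listed. GDF15, a stress-induced cytokine, rose by 3.48 (SE 0.23) and XPOT, a tRNA exporter, was at -1.57 (SE 0.12). Of 23 glutathione and NRF2 target genes 3 were listed, all higher with both scalings, among them the glutathione synthetase GSS at 1.24 (SE 0.11) and GGT5, a gamma-glutamyltransferase, at 2.70 (SE 0.34). Of 23 enzymes of folate, nucleotides and thiamine 5 were listed, 3 higher and 2 lower, with PNP, a purine nucleoside phosphorylase, at 1.22 (SE 0.10) and the thymidine kinase TK1 at -1.59 (SE 0.18). None of 22 mitochondrial transport genes outside the SLC names was listed. All of these genes passed an adjusted p of 0.05 with the recovered depth (edgeR), as 100% of the table did.

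All listed markers of cell types other than granulosa cells were lower, as were 65.7% of all listed genes. Of 8 genes of theca, stroma and smooth muscle 2 were listed, both lower (DES at -1.76 and PDGFRB at -1.62), with a summed level of 63.0 to 65.9 FPKM in siNC against 16.1 to 21.6 FPKM in siINHBA. Epithelial markers had 2 of 5 listed, both lower (KRT19 at -1.82 and UPK1B at -1.10), at 31.9 to 33.6 and 12.5 to 12.7 FPKM. Endothelial markers had 2 of 5 (KDR at -2.55 and VWF at -1.38, together below 0.7 FPKM in every library) and leukocyte markers 1 of 5 (CSF1R at -1.11, at most 0.462 FPKM), all lower. None of 4 oocyte markers was listed, no listed marker was at 0 in any library, and UPK1B, VWF and CSF1R did not pass with TMM. Granulosa cell markers were listed for 5 of 11 genes, of which 4 were lower and 1 higher, at a sum of 194 to 208 FPKM in siNC against 65.5 to 82.2 FPKM in siINHBA, led by the steroidogenic CYP11A1 at -1.46 and by the target INHBA. INHBA, which the siRNA was aimed at, is among the 4 lower and in both sums, with means of 20.5 FPKM in siNC and 7.36 FPKM in siINHBA. Markers that are not listed cannot be read from this table, and the part of any cell type in the carrier levels was not tested.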

How the data were processed

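Per the labels' protocols, the 6 libraries were made from poly(A) RNA bound to oligo(dT) beads, with random hexamer priming. The sources used here do not name the aligner, counter, test, genome build or strand setting, so reads of a gene and of an antisense gene cannot be told apart. Per the file headers, the deposited sheet gives, for each gene and library, a count of reads and the FPKM, and for each gene the authors' log2 fold change and false discovery rate, which is a p-value adjusted for multiple tests. Of its lines 4 held no complete gene.

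Counts were tested with edgeR 4.0.16 in R 4.3.3 (glmQLFit, glmQLFTest, filterByExpr with a minimum count of 10, no block), with p-values adjusted by Benjamini-Hochberg over all 1620 genes. Since only genes already called were in the table, this adjustment does not control the false discovery rate over the genes measured. Library sizes came from the median ratio of count to FPKM over the 702 genes whose count exceeded 200 in all 6 libraries. The SE is the absolute log2 fold change over the square root of F. Alternatives were TMM, DESeq2 1.42.0, limma 3.58.1 on log2(FPKM + 1) and log2(FPKM + 0.1), filters, a replicate block and leaving out each library.

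The members and lists were chosen with earlier results of these data known. Per-library values were given by rule for the 5 largest rises and falls, the 5 highest levels and the 3 highest CVs in siINHBA. The rises and falls had to reach a mean of 1 FPKM in either group, which SLC45A3 and SLC47A1 did only in siINHBA. Per-library values of other members were added after their values were seen. From each list the 2 genes with the smallest adjusted p were named. Results of some genes, members among them, are not reported here, and the next genes of a list then took their place. No pair of libraries of a group agreed within sampling noise: chi-square per gene averaged 5.33 to 8.75 between siNC libraries and 17.6 to 47.4 between siINHBA libraries.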

Additional observations from a re-analysis of the deposited data

How the results depend on the processing

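TMM over the listed genes and DESeq2 with its own size factors, which both centre the table by construction, lowered the count of passing genes from 1620 to 919 and 914, of passing carriers from 32 to 13 in each, and of lower carriers from 25 to 6 in each; the 7 higher carriers stayed 7. INHBA moved from -1.49 to -0.41 under both and still passed. Named values that changed sign under TMM and under DESeq2 with its own factors were those of SLC35E1 (0.117 and 0.116), SLC44A2 (0.094 and 0.092), SLC38A2 (0.078 and 0.076), SLC41A2 (0.071 and 0.068), SLC25A35 (0.054 and 0.050), SLC39A6 (0.036 and 0.033), SLC38A1 (0.034 and 0.029), PFKM (0.12 and 0.12) and SGK1 (0.056 and 0.055). Of 417 values of 30 carriers over 14 alternatives, 381 kept direction and call, 22 no longer passed and 14 changed sign, the latter 2 groups only under these centrings; the limma fit limited to genes of at least 1 FPKM gave no value for SLC16A14, SLC22A16 and SLC38A11.

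With any 1 library left out, 1618 to 1620 genes passed, all 32 carriers passed in every case with 25 lower and 7 higher, and INHBA lay at -1.64 to -1.38. The median CV of the carriers was 4.34% to 5.03% in siNC and 12.3% to 21.8% in siINHBA with a library left out, and 5.91% and 18.3% on depth-scaled counts. With each group's mean per gene taken out of the log2 depth-scaled counts, same-numbered libraries correlated at 0.04, 0.18 and -0.02. Differently numbered libraries of siNC and siINHBA correlated at -0.13 to 0.09. The numbers were not taken as pairs. With a replicate block 1620 genes, 25 lower and 7 higher carriers passed, and INHBA was at -1.51. The table was selected by the authors on these same libraries, which leaves such counts little freedom. The least precise fold was that of SLC6A17 (SE 0.55), whose CV in siINHBA was also the highest, at 67.5%. Some carriers with few counts also had imprecise folds: SLC16A14 (SE 0.35), SLC38A11 (SE 0.32) and SLC22A16 (SE 0.30).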
